A study of Mus musculus with 24 samples.

Results

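Gpnmb, Trem2, Apoe, Spp1, Lpl, Cd9, Fabp5 and Ctsd are 8 of the 54505 genes measured in cells from malignant pleural effusions of mice. They were picked by symbol as genes of lipid-associated macrophages, a state that macrophages take up in fat tissue, plaques and tumors when they engulf lipid and cell debris. In that state the surface receptor Trem2 binds lipids and lipoproteins such as Apoe and signals through the adaptor Tyrobp, Lpl releases fatty acids from lipoproteins, Fabp5 carries them inside the cell, and Ctsd digests protein in the lysosome. Gpnmb is a transmembrane glycoprotein of the same state, also known from melanocytes and osteoclasts, and is a known target of the MiT/TFE transcription factors that switch on lysosomal genes. Spp1 encodes osteopontin, a secreted ligand of integrins and CD44, and Cd9 encodes a tetraspanin of the plasma membrane.

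Effusions were raised in C57BL/6 mice with LLC (Lewis lung carcinoma), a line of mouse lung cancer cells placed in the pleural cavity. Treatment was given into that cavity on day 11 and was 1 of 4: PBS, the antibody anti-PD-L1 (clone 10F.9G2, 30 µg), nanoparticles loaded with the STING agonist cGAMP (LNP-CDN, 1 µg), or both agents. Cells were collected on day 13, both as the pellet of the pleural fluid and as a digest of the pleural tumors, and red cells were lysed. The labels give 3 mice per treatment, in 8 groups of 3 libraries, and do not say whether a fluid and a tumor library came from the same mouse. Levels are FPKM (fragments scaled to gene length and library depth), and differences are on the scale of log2(FPKM + 1), with standard errors from limma, n = 3 libraries against 3. A gene is said to have changed when its Benjamini-Hochberg adjusted p from limma, over all genes tested, was under 0.05.

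Gpnmb drew attention because it was higher with LNP-CDN than with PBS in fluid and not in tumor. The comparison of LNP-CDN with PBS is therefore given as a description, without a test, for all 8 genes. Tests of the other genes that use the PBS or LNP-CDN libraries share libraries with that comparison. They are no independent support for the choice of the genes. The nanoparticle was tested in libraries which that choice did not use, as both agents against anti-PD-L1 alone. In both tissues that comparison also carries a difference in the Y-linked marker Ddx3y, as given below. All 8 genes passed the filter on low values in both tissues. The lowest counts behind any value were 306 reads for Trem2, 311 for Lpl and 506 for Gpnmb.

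Facts of the whole series bear on these genes as follows. The libraries held 14584438 to 26888253 reads. The macrophage markers were present in both tissues and higher in fluid. The summed level of 13 macrophage markers, including Adgre1, Csf1r and the C1q genes, was 5121 to 11650 FPKM in fluid and 783 to 1025 in tumor, with no marker at 0. Fluid anti-PD-L1 replicate 1 stood apart, with the highest macrophage sum of all (11650, against 7357 and 5655 in its group) and the lowest monocyte sum of the fluid libraries (1056). Values without it are therefore given beside the tests of the 8 genes for both agents against anti-PD-L1 in fluid and beside most list counts. They are not given for the osteoclast, proliferation and fibroblast markers. Among fluid libraries the Y-linked gene Ddx3y reached 21.6 to 23.6 FPKM in those with anti-PD-L1 alone and stayed under or at 0.0283 in the rest. In tumor Ddx3y was at 3.27 to 3.44 FPKM with anti-PD-L1 alone and at most 0.0077 with both agents. Xist, a marker of female cells, was at 8.18 to 20.0 FPKM in fluid with anti-PD-L1 alone and 63.4 to 66.6 with both agents. In tumor it was at 63.3 to 72.4 and 72.8 to 80.3 FPKM, with no such drop. Sex, read here only from these markers, and treatment cannot be told apart for anti-PD-L1 alone in fluid. Nor can they for both agents against anti-PD-L1 in fluid. In tumor the markers differ on sex, and the Ddx3y difference cannot be told apart from treatment. Tumor PBS replicate 1 held Ddx3y at 3.55 FPKM and the fluid PBS libraries at most 0.0253, so it matched none of them in this marker. That tumor library also had the highest Xist of all, 104 FPKM.

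Of the 8 genes, 6 have a promoter window in the RefSeq table (build GRCm38.p6), which here means the 250 bases before a transcript start, 9 windows in all because Spp1 has 2 starts and Apoe 3. Those of Gpnmb, Spp1 and Trem2 are shown because these 3 genes were higher with both agents than with anti-PD-L1 in fluid, and all 3 lie on the + strand, at chr6:49036268-49036517, chr5:104434861-104435110 and chr17:48346151-48346400. Capitals mark matches, on either strand, to 4 motifs: CACGTG (the core of the lysosomal CLEAR element), CATGTG (the M-box core bound by Mitf), GAAANNGAAA (the core of the interferon-stimulated response element) and GAGGAAG (the core bound by PU.1, the macrophage lineage factor).
Gpnmb: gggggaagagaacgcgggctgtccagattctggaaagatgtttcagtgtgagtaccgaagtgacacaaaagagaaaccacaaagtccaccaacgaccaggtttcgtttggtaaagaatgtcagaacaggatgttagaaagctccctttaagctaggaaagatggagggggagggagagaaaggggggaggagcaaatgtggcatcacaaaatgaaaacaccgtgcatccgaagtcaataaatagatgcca
Spp1: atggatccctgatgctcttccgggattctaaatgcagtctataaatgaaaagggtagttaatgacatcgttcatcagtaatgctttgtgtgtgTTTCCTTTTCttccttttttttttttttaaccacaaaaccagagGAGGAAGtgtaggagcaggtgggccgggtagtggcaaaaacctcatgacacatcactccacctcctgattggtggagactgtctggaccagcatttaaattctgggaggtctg
Trem2: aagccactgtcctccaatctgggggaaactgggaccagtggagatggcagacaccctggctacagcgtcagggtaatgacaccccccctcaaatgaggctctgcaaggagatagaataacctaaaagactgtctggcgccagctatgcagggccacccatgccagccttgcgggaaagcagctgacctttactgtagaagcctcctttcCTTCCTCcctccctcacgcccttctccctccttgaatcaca
The Gpnmb window holds none of the 4 motifs, which says only that these letters are not in these 250 bases. The window at the other Spp1 start (chr5:104435942-104436191) and the 3 of Apoe hold none either. The Spp1 window shown, at the upstream start, holds GAAANNGAAA in reverse, 157 bases before the start, and GAGGAAG, 113 bases before it. The Trem2 window holds GAGGAAG in reverse, 41 bases before the start. Among 32851 windows of the same length, 2.98% hold GAAANNGAAA, 10.6% hold GAGGAAG, 12.25% hold CATGTG and 6.02% hold CACGTG. Of the windows not shown, that of Ctsd holds CACGTG at 245 and at 98 bases before its start, and that of Cd9 holds CATGTG in reverse, 38 bases before its start. No motif overlaps another in these windows.

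Gpnmb (chromosome 6, 49036546 to 49070929, + strand, GRCm38) was low in fluid without the nanoparticle and high with it. Its level was 5.73, 5.08 and 7.21 FPKM in the PBS libraries and 7.84, 9.29 and 8.34 with anti-PD-L1. It was 111, 77.9 and 89.8 FPKM with LNP-CDN and 65.5, 72.1 and 86.7 with both agents. Every fluid library that received the nanoparticle was thus above every one that did not, and the groups did not overlap. In tumor its level ran from 15.1 to 26.6 FPKM over all 12 libraries, with group means of 19.8 to 23.3, and the 4 treatments overlapped. The tumor libraries lay between these 2 sets of fluid libraries, above those without the nanoparticle and below those with it.

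With both agents Gpnmb was 8.81-fold its level with anti-PD-L1 in fluid, a log2 difference of 2.99 ± 0.15 (SE; limma adjusted p = 2.36e-06) and all 3 libraries lay above those with anti-PD-L1. Without fluid anti-PD-L1 replicate 1 the difference was 2.94 (adjusted p = 1.48e-05). In tumor the same comparison gave -0.12 ± 0.16 (adjusted p = 0.782; 0.15 under TPM, which moved the median of all genes there by 0.24), and the difference between the tissues was -3.11 ± 0.23, tumor minus fluid (adjusted p = 3.55e-07). LNP-CDN minus PBS, the comparison that chose the gene, was 3.74 ± 0.15 in fluid and -0.12 ± 0.16 in tumor. In these bulk libraries fewer cells of a type and less RNA per cell cannot be told apart.

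In order of group mean, the fluid groups with LNP-CDN (93.0 ± 16.9 FPKM, SD) and with both agents (74.8 ± 10.9) came first, and their libraries overlapped. The tumor groups followed at 23.3 ± 4.27 with anti-PD-L1, 21.3 ± 3.05 with both agents, 21.2 ± 0.504 with PBS and 19.8 ± 4.04 with LNP-CDN, and these neighbours also overlapped. The fluid groups with anti-PD-L1 (8.49 ± 0.738) and PBS (6.01 ± 1.09) came last. These last groups did not overlap, and their difference of 0.45 ± 0.15 is given without a test because the PBS libraries were used to choose the gene.

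**Figure D1:**
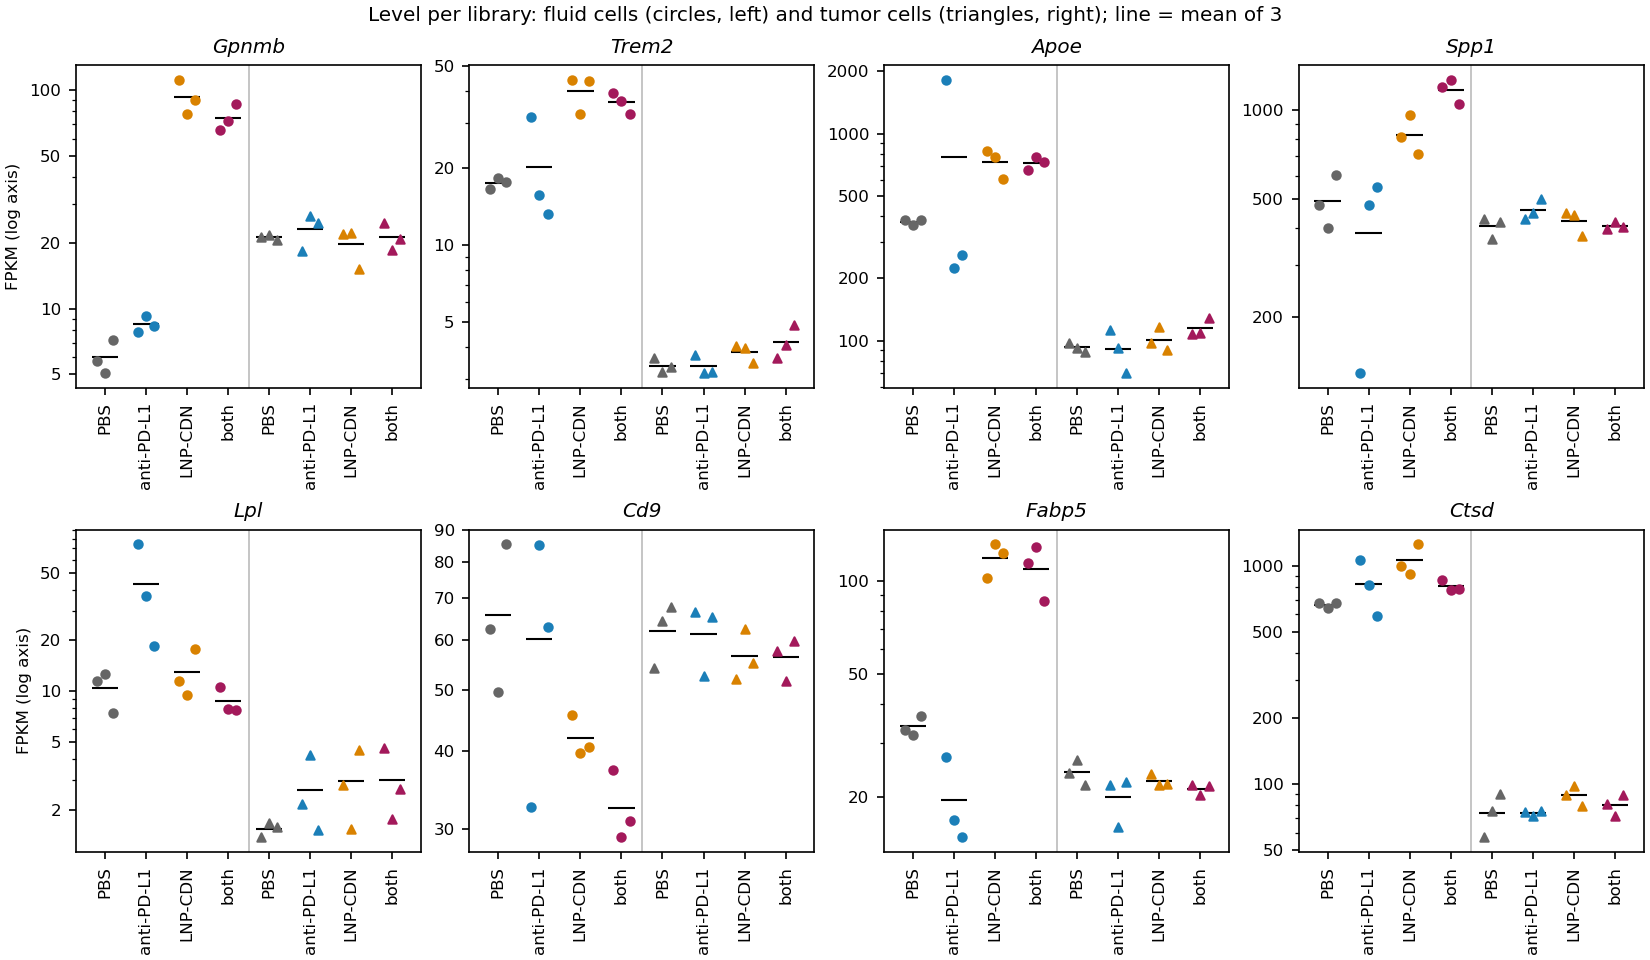
FPKM of the 8 genes on log axes, 1 point per library, with fluid cells as circles on the left and tumor cells as triangles on the right of each panel, colored by treatment; the line is the mean of 3 libraries. Gpnmb, Fabp5, Spp1 and, narrowly, Trem2 in fluid split into libraries with and without the nanoparticle. Tumor levels of each gene are close together over the treatments apart from Lpl, and 1 fluid anti-PD-L1 library lies apart for Apoe, Spp1, Trem2 and Cd9. The share of all genes that split this way was not computed.

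Trem2 (chromosome 17, 48346401 to 48354147, + strand), the lipid-sensing receptor, was also higher in the fluid libraries that received the nanoparticle. Its level was 16.6, 18.3 and 17.7 FPKM with PBS and 31.5, 15.7 and 13.2 with anti-PD-L1. It was 44.1, 32.6 and 43.6 FPKM with LNP-CDN and 39.4, 36.5 and 32.3 with both agents. The 6 nanoparticle libraries lay above the other 6, with anti-PD-L1 replicate 1 just under them. Trem2 rose 1.79-fold with both agents against anti-PD-L1 (log2 difference 0.90 ± 0.25, limma adjusted p = 0.0168). That call was lost when any of 4 libraries was left out: anti-PD-L1 replicate 2 (adjusted p = 0.0598) or 3 (0.0583), or replicate 1 (0.0569) or 2 (0.0504) of both agents. It was lost too when only the 6 libraries compared were fitted (0.0627), while without anti-PD-L1 replicate 1 the difference was 1.26 (adjusted p = 0.000161). In tumor Trem2 was low throughout, at 3.17 to 4.87 FPKM.

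Apoe (chromosome 7, 19696109 to 19699188, - strand), the lipoprotein that Trem2 binds, was among the most abundant of the 8 in fluid. Its level was 383, 361 and 382 FPKM with PBS and 1816, 225 and 259 with anti-PD-L1. It was 819.7, 773 and 601 FPKM with LNP-CDN and 665, 772 and 731 with both agents. The group with both agents lay above the PBS group and within the range of anti-PD-L1, where 1 library is highest of all and the others lowest of all. Both agents against anti-PD-L1 gave 0.61 ± 0.61 (limma adjusted p = 0.465), and 1.57 (adjusted p = 6.55e-05) without anti-PD-L1 replicate 1. Anti-PD-L1 against PBS turned from 0.34 ± 0.61 (adjusted p = 0.75) to -0.63 (adjusted p = 0.0205) without it. A single library thus decides both values. In tumor Apoe was at 69.9 to 129 FPKM.

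Spp1 (chromosome 5, 104435118 to 104441050, + strand), the secreted ligand osteopontin, was highest in fluid with both agents. Its level was 478, 401 and 606 FPKM with PBS and 129.6, 478 and 551 with anti-PD-L1. It was 811, 961 and 708 FPKM with LNP-CDN and 1196, 1265 and 1048 with both agents. The 4 groups were ordered without overlap between both agents, LNP-CDN and the other pair, and the PBS and anti-PD-L1 libraries overlapped. Both agents against LNP-CDN gave 0.51 ± 0.44 and did not pass the test (limma adjusted p = 0.966). The share of all genes ordered this way was not computed. Spp1 rose 3.03-fold with both agents against anti-PD-L1 (1.84 ± 0.44, limma adjusted p = 0.00802), and by 1.18 (adjusted p = 0.00117) without anti-PD-L1 replicate 1. The difference between the tissues was -2.01 ± 0.47, tumor minus fluid (adjusted p = 0.00487). Tumor cells held Spp1 at 368 to 501 FPKM, within the range of the PBS and anti-PD-L1 fluid libraries.

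Cd9 (chromosome 6, 125460266 to 125494791, - strand), a tetraspanin that sits in membrane complexes with integrins, went the other way from Gpnmb in fluid. Its level was 62.5, 49.7 and 85.4 FPKM with PBS and 32.5, 85.0 and 63.1 with anti-PD-L1. It was 45.7, 39.7 and 40.6 FPKM with LNP-CDN and 37.3, 29.1 and 30.9 with both agents. The nanoparticle libraries lay under all PBS libraries, and the low anti-PD-L1 library was again replicate 1. Against anti-PD-L1, both agents gave -0.77 ± 0.30 (limma adjusted p = 0.0613), and -1.16 (adjusted p = 0.00207) without that library. In tumor Cd9 was at 51.6 to 67.8 FPKM.

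Lpl (chromosome 8, 68880491 to 68907448, + strand), the lipase that frees fatty acids from lipoproteins, was highest in fluid with anti-PD-L1 alone. Its level was 11.5, 12.6 and 7.47 FPKM with PBS and 74.2, 36.7 and 18.6 with anti-PD-L1. It was 11.5, 9.54 and 17.8 FPKM with LNP-CDN and 10.6, 7.88 and 7.72 with both agents. All 3 anti-PD-L1 libraries lay above the other 9, though they spread widely, and the rest overlapped. Lpl was 4.94-fold lower with both agents than with anti-PD-L1 (-1.98 ± 0.41, limma adjusted p = 0.00381), and still fell by 1.49 (adjusted p = 0.00509) without anti-PD-L1 replicate 1. The difference between the tissues was 2.14 ± 0.56, tumor minus fluid (adjusted p = 0.0104). Tumor Lpl was low, at 1.37 to 4.64 FPKM, and tumor libraries also differed in adipocyte markers (2.61 to 12.7 FPKM summed over 6 genes) and skeletal muscle markers (2.17 to 144 over 5), cell types that make Lpl; their part in the tumor values was not tested.

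Fabp5 (chromosome 3, 10012548 to 10016607, + strand), a carrier of fatty acids in the cytoplasm, followed Gpnmb most closely of the other 7. Its level was 33.1, 31.8 and 36.7 FPKM with PBS and 27.0, 16.9 and 14.8 with anti-PD-L1. It was 102, 131 and 123 FPKM with LNP-CDN and 114, 129 and 85.8 with both agents. The nanoparticle libraries all lay above the others, and the anti-PD-L1 libraries below those with PBS. Fabp5 rose 5.59-fold with both agents against anti-PD-L1 (2.45 ± 0.21, limma adjusted p = 3.91e-05; 2.69 without anti-PD-L1 replicate 1), and the difference between the tissues was -2.35 ± 0.25, tumor minus fluid (adjusted p = 9.57e-06). In tumor Fabp5 was at 16.1 to 26.3 FPKM.

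Ctsd (chromosome 7, 142375911 to 142388038, - strand), the lysosomal aspartic protease cathepsin D, had the smallest difference of the 8 between both agents and anti-PD-L1 in fluid. Its level was 679, 643 and 674 FPKM with PBS and 1061, 817 and 589 with anti-PD-L1. It was 1004, 915 and 1258 FPKM with LNP-CDN and 864, 777 and 785 with both agents. The LNP-CDN and both-agent libraries lay above PBS, and the anti-PD-L1 libraries ran from below the PBS range into that of LNP-CDN. Both agents against anti-PD-L1 gave 0.02 ± 0.20 (limma adjusted p = 0.961), and 0.22 (adjusted p = 0.328) without anti-PD-L1 replicate 1, while the value turned negative without some other libraries. In tumor Ctsd was at 57.1 to 97.9 FPKM.

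Against anti-PD-L1 alone, then, both agents in fluid gave 4 of the 8 genes higher (Gpnmb, Fabp5, Spp1, Trem2), 1 lower (Lpl) and 3 that did not pass the test. Over all 13518 genes tested, 37.3% were called in that comparison (18.4% higher and 18.9% lower), and the median log2 difference was 0.75 for the 8 and 0.00 for all. Without anti-PD-L1 replicate 1, 7 of the 8 were called, Apoe higher and Cd9 lower in addition, against a background of 40.3% (20.5% higher and 19.8% lower). In the same comparison 3 of 13 macrophage markers rose and 3 fell (5 and 3 without that library), 4 of 7 monocyte markers rose and 1 fell (4 and 2), and 3 of 8 neutrophil markers rose (3). Resident serous macrophage markers summed to 66.8 to 133 FPKM with both agents and to 526 to 814 with anti-PD-L1, with 1 of 6 called lower (3 without that library). The part of these cell types in the 8 genes' differences was not tested.

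Against PBS, both agents raised Fabp5 (1.65 ± 0.21, limma adjusted p = 0.000384) and Trem2 (1.00 ± 0.25, 0.013) in fluid and lowered Cd9 (-0.97 ± 0.30, 0.0299), 3 of the 7 genes other than Gpnmb where 30.1% of all genes were called. Gpnmb differed by 3.44 ± 0.15, given without a test because the PBS libraries were used to choose it. For the other genes the same PBS libraries entered the LNP-CDN comparison left untested above, so these p-values are not independent of it. The Cd9 call was lost without PBS replicate 1 (0.0694) or 3 (0.114), or without replicate 2 (0.0933) or 3 (0.0748) of both agents. Spp1 (1.26 ± 0.44, adjusted p = 0.0518), Apoe (0.94 ± 0.61, 0.268), Ctsd (0.28 ± 0.20, 0.31) and Lpl (-0.23 ± 0.41, 0.706) did not pass. When only the 6 libraries compared were fitted, Apoe (0.000278), Spp1 (0.00157) and Ctsd (0.0171) passed as well. Neutrophil markers summed to 3411 to 5310 FPKM with PBS and 879 to 1978 with both agents, and their part in these values was not tested.

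Adding anti-PD-L1 to the nanoparticle did not give a detectable change. Between both agents and LNP-CDN in fluid, 0 of the 8 genes, Gpnmb aside, and 0% of all genes were called (limma, with 761 of 13518 genes at an unadjusted p under 0.05). The differences ran from -0.49 ± 0.41 for Lpl to 0.51 ± 0.44 for Spp1. Gpnmb gave -0.31 ± 0.15, without a test because the LNP-CDN libraries were used to choose it. Anti-PD-L1 alone against PBS raised Lpl (1.75 ± 0.41, limma adjusted p = 0.0201) and lowered Fabp5 (-0.80 ± 0.21, 0.0306). These were 2 of the 8, Gpnmb aside, where 13.0% of all genes were called (5.47% higher and 7.49% lower). They too rest on the PBS libraries of the comparison left untested. Both calls were lost when only the 6 libraries compared were fitted (0.0745 and 0.0695). The Lpl call was also lost without PBS replicate 1 (0.0567) or 3 (0.0811) or anti-PD-L1 replicate 2 (0.0504). That of Fabp5 was lost without any 1 of the PBS libraries or without anti-PD-L1 replicate 2 or 3, with adjusted p from 0.0611 to 0.102. Without anti-PD-L1 replicate 1 Lpl and Fabp5 kept their calls and Apoe was called lower, 3 of the 8, Gpnmb aside, beside 12.3% of all genes.

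**Figure D2:**
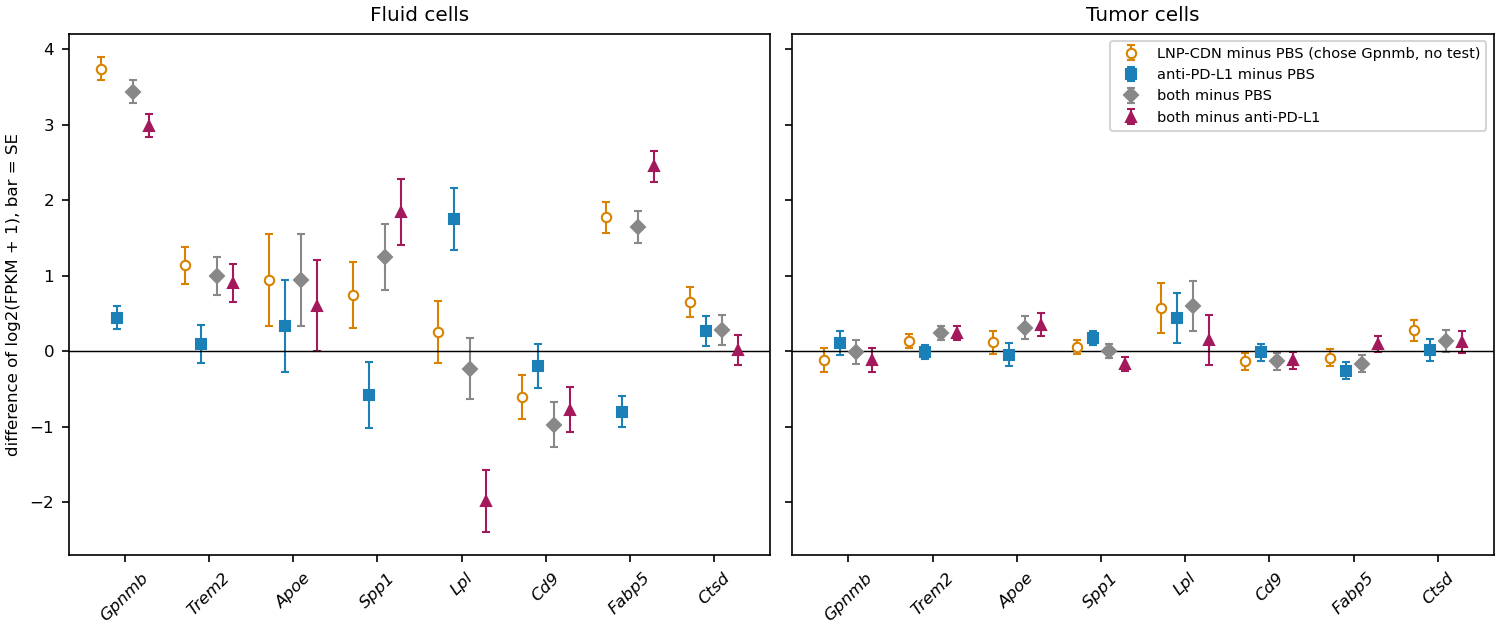
Differences of log2(FPKM + 1) between treatments for the 8 genes in fluid (left) and tumor (right), each from 3 libraries against 3, with bars of 1 standard error; open circles are LNP-CDN minus PBS, the comparison that chose Gpnmb and was not tested. In fluid the nanoparticle comparisons of Gpnmb lie near or above 3 and those of Fabp5 between 1.65 and 2.45, while in tumor all 8 genes stay between -0.26 and 0.60.

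In tumor cells 0 of the 8 genes changed in any tested comparison, where Gpnmb counts only for both agents against anti-PD-L1. The background there was 0% for anti-PD-L1 against PBS, 1.18% for both agents against PBS, 1.55% for both agents against anti-PD-L1 and 0% for both agents against LNP-CDN (limma over 13173 genes; 821, 1853, 2085 and 680 genes at an unadjusted p under 0.05). For both agents against anti-PD-L1 the 8 genes ran from -0.17 ± 0.09 (Spp1) to 0.35 ± 0.15 (Apoe). Apoe and Trem2 (0.25 ± 0.09) had an unadjusted p of 0.0405 and 0.0223 there, and adjusted p of 0.289 and 0.228.

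Levels also differed between the tissues. With PBS, tumor cells held 3.54-fold more Gpnmb than fluid cells on the FPKM scale (1.68 ± 0.16 on the log2 scale), given without a test because those libraries were used to choose the gene. With anti-PD-L1 it was 2.74-fold higher in tumor (1.34 ± 0.16, limma adjusted p = 5.14e-07), in groups that both held Ddx3y, as above. Under both agents the order was turned, with 3.52-fold more in fluid (tumor minus fluid -1.77 ± 0.16, adjusted p = 7.53e-09). The other macrophage genes were lower in tumor with PBS, by -3.18 ± 0.17 for Ctsd, -2.15 ± 0.39 for Lpl, -2.08 ± 0.20 for Trem2 and -2.00 ± 0.47 for Apoe (adjusted p from 4.31e-12 to 0.000713). Fabp5 was lower by -0.48 ± 0.17 (adjusted p = 0.0179), a call that was lost under TPM (0.984) and total-read scaling (0.517). Spp1 (-0.27 ± 0.33) and Cd9 (-0.05 ± 0.24) did not pass, and both turned positive under those scalings, to 0.21 and 0.10 for Spp1 and to 0.43 and 0.31 for Cd9. These scalings moved the median of all genes by 0.29 to 0.47 between the tissues, over the 3 treatments tested, so small tissue differences depend on the scale. In all, 5 of the 7 genes other than Gpnmb were called with PBS (74.8% of all genes), while all 8 were called with both agents (76.4%) and 5 of the 8 with anti-PD-L1 (70.7%). The calls with PBS share libraries with the comparison left untested.

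The nanoparticle difference (both agents minus anti-PD-L1) itself differed between tumor and fluid for Gpnmb, Fabp5, Spp1 and Lpl, 4 of 8 where 22.2% of all genes were called. In both tissues it also carries the difference in Ddx3y, as above. Trem2 (-0.66 ± 0.28, limma adjusted p = 0.101), Cd9 (0.66 ± 0.33, 0.171), Apoe (-0.25 ± 0.66, 0.826) and Ctsd (0.10 ± 0.25, 0.807) did not pass. Without fluid anti-PD-L1 replicate 1, Trem2 (-1.02, 0.000277), Apoe (-1.22, 0.000536) and Cd9 (1.04, 0.00384) did, and Ctsd did not.

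To set each gene beside the amount of macrophage RNA, its FPKM was also divided by the summed macrophage markers of the same library and given per 1000 FPKM of markers. On that scale Gpnmb was 0.835 to 1.18 in fluid with PBS, 0.672 to 1.47 with anti-PD-L1, 12 to 18.1 with LNP-CDN and 12 to 16.2 with both agents. Its tumor libraries lay at 18.7 to 31.3, above all fluid libraries. Trem2 was 2.80 to 3.02 with PBS, 2.13 to 2.71 with anti-PD-L1, 5.83 to 7.19 with LNP-CDN and 6.06 to 7.21 with both agents in fluid, and here anti-PD-L1 replicate 1 no longer stood out.

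Fabp5 on that scale was 2.30 to 2.62 with anti-PD-L1 and 16.1 to 25.2 with both agents, and Spp1 was 11.1 to 97.4 and 196 to 247. Lpl was 3.29 to 6.37 with anti-PD-L1 and 1.45 to 1.94 with both agents. Gpnmb, Trem2, Fabp5, Spp1 and Lpl therefore kept separate groups relative to macrophage markers too. The share of all genes that separate on this scale was not computed, so this is no trait particular to them. Ctsd, which overlapped in FPKM, did not overlap on this scale, at 91.0 to 111 with anti-PD-L1 and 147 to 158 with both agents. Apoe (30.6 to 156 against 122 to 151) and Cd9 (2.79 to 11.6 against 5.69 to 6.83) overlapped. Cells other than macrophages also make Spp1, Cd9 and Fabp5, and which cells of the tumor digest held Gpnmb was not tested. The ratio is therefore a description and not a level per macrophage.

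**Figure D3:**
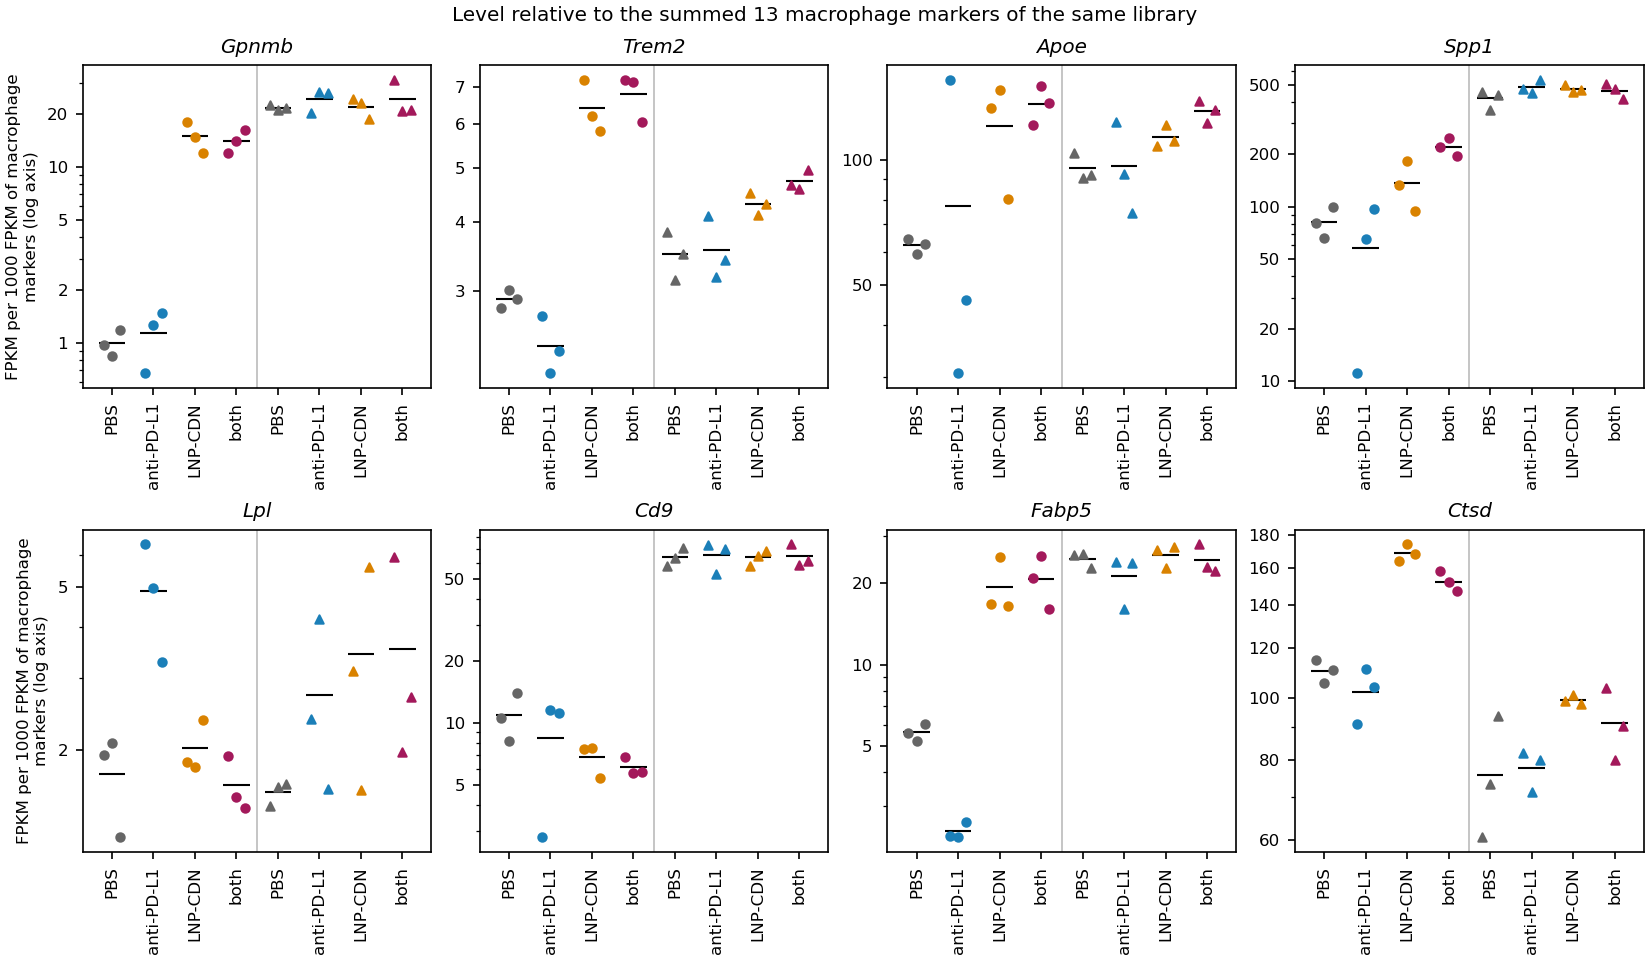
Level of each gene per 1000 FPKM of 13 summed macrophage markers of the same library, on log axes, with fluid cells as circles (left) and tumor cells as triangles (right); the line is the mean of 3 libraries. Relative to macrophage markers, Gpnmb, Trem2, Fabp5, Spp1 and Ctsd are higher in each fluid library with both agents than in each with anti-PD-L1, and Lpl is lower. The share of all genes that separate this way was not computed.

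The shape of each gene over the 8 group means was compared with 6403 genes that reached 10 FPKM in some group, by the root mean square difference of profiles of log2(FPKM + 1) centred on their own means. These 8 points share libraries and depth, and the measure is a description. The profiles nearest to Gpnmb were those of Cxcl10 (0.63), Ifit2 (0.67), Ms4a7 (0.68), AU022793 (0.71), Tmem171 (0.72) and Ifi44 (0.72). Cxcl10 encodes an interferon-induced chemokine, Ifit2 and Ifi44 are interferon-stimulated genes, and Ms4a7 is a macrophage membrane gene that is also in the macrophage marker list. Cxcl10 was at 1.92 FPKM in PBS fluid and 29.4 in LNP-CDN fluid, but unlike Gpnmb it was also higher in LNP-CDN tumor (18.1) than in PBS tumor (5.35); the difference between the genes was not tested.

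Among the 8 themselves, Fabp5 (0.76) ranked 11 and Spp1 (0.82) ranked 15 from Gpnmb, while Trem2 (1.43) ranked 4439, Apoe 4570, Cd9 4678, Lpl 5791 and Ctsd 5960. The ranks were not mutual, as Gpnmb ranked 864 from Fabp5 and 3991 from Spp1. The profiles also include the PBS and LNP-CDN values that chose Gpnmb. Trem2 and Apoe, receptor and ligand, had nearly the same profile (0.12), and Apoe ranked 4 from Trem2. Their fluid anti-PD-L1 means include replicate 1, at 1816 FPKM for Apoe (225 and 259 in the others) and 31.5 for Trem2 (15.7 and 13.2). The likeness without that library was not tested. The nearest profiles to Trem2 were Aoah, which inactivates endotoxin lipids, Il10rb, a receptor chain for interleukin-10, and Psme2b. Psme2b was also nearest to Apoe, followed by Slc31a2 and H2-M3. Lpl was nearest to Cd36 (0.30), the fatty acid receptor, and then to Clmn and Atp1b3. Fabp5 was nearest to Ms4a7, Isg20 and AU022793, Spp1 to Ankrd66, Vipas39 and Cxcl16, Cd9 to Hnrnpa0, Morf4l2 and Hdlbp, and Ctsd to Metrnl, Cyba and Rab32. The 8 genes thus did not share 1 profile over the groups.

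**Figure D4:**
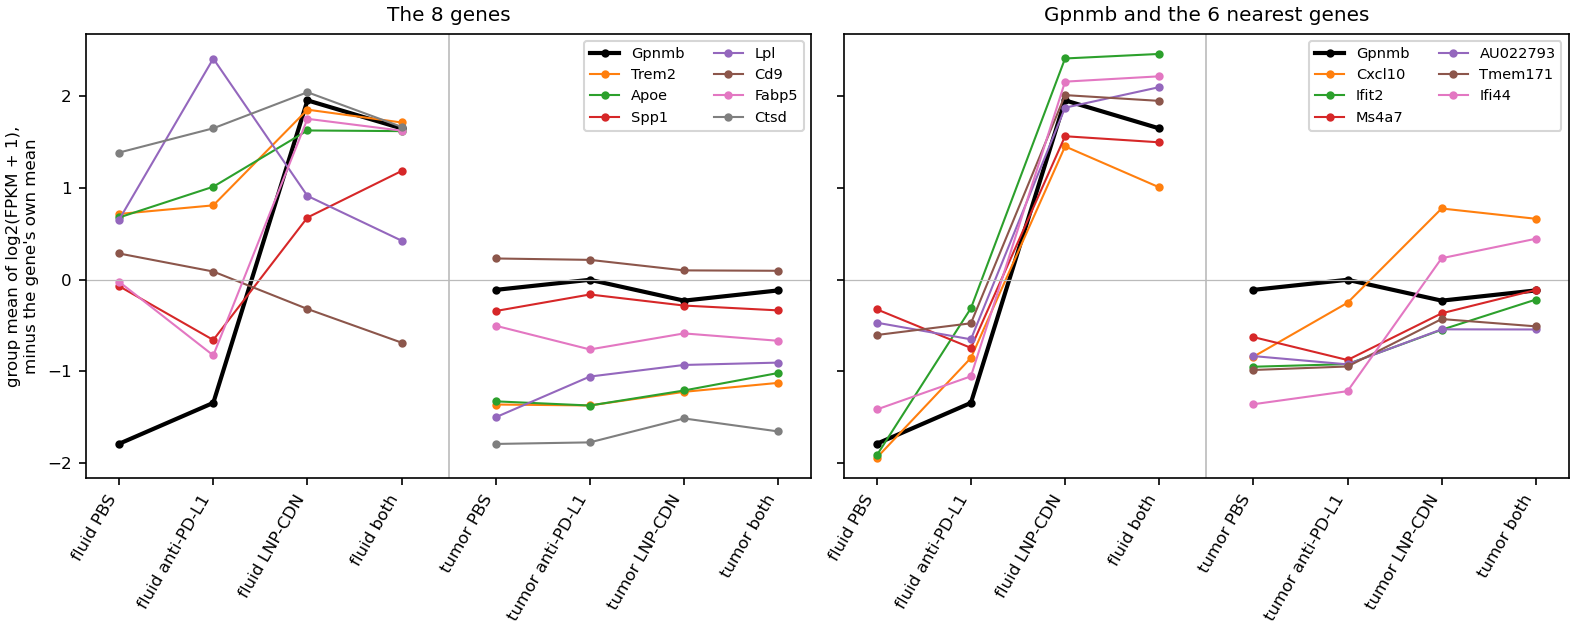
Group means of log2(FPKM + 1), each gene minus its own mean over the 8 groups, for the 8 genes (left) and for Gpnmb with its 6 nearest genes (right); points are the means of 3 libraries. Gpnmb and Fabp5 step up from anti-PD-L1 to LNP-CDN in fluid, Lpl peaks with anti-PD-L1 in fluid, and Trem2, Apoe, Lpl and Ctsd are higher in all fluid groups than in all tumor groups.

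Genes that work with the 8 were read from 14 lists, again for both agents against anti-PD-L1 in fluid, with 18.4% of all genes higher and 18.9% lower. Values in parentheses are log2 differences, and each gene said to have risen or fallen passed the limma test. Of 23 other lipid-associated and disease-associated macrophage genes, 7 rose and 3 fell (median 0.27), and 9 rose and 2 fell without anti-PD-L1 replicate 1. The protease Ctsl (0.96 ± 0.14), the cystatin Cst7 (1.56 ± 0.25) and the proton pump subunit Atp6v0d2 (0.72 ± 0.12) rose. Cd36 (-1.88 ± 0.24), the metalloprotease inhibitor Timp2 (-1.75 ± 0.21) and the chemokine Ccl6 (-0.71 ± 0.22) fell, and the call for Ccl6 was lost without that library. Other members of the state did not pass, among them Plin2 at 0.33 ± 0.15 (adjusted p = 0.112), Cd63 at -0.13 ± 0.17 (0.59) and Itgax at 0.06 ± 0.15 (0.791).

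Of 15 Trem2 adaptor and signalling genes, 7 rose and 1 fell (median 0.34), and 9 and 1 without anti-PD-L1 replicate 1. The related receptor Treml2 (1.45 ± 0.16), Ms4a6d (1.12 ± 0.18) and the exchange factor Vav1 (0.94 ± 0.15) rose, and Adam10 (-0.58 ± 0.10), a protease that sheds Trem2, fell. Tyrobp, the adaptor itself, gave 0.10 ± 0.22 (adjusted p = 0.764) and was at 669 ± 28.0 FPKM with both agents and 654 ± 223 with anti-PD-L1.

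The 4 lysosomal lists held no lower gene in this comparison. Of 11 MiT/TFE factors and regulators 6 rose and 0 fell (median 0.29), including Fnip2 (1.04 ± 0.14), Tfec (0.88 ± 0.17) and Fnip1 (0.37 ± 0.08). Mitf itself rose by 0.28 ± 0.09 (adjusted p = 0.0251), while Tfeb (0.26 ± 0.18, 0.275) and Tfe3 (0.29 ± 0.11, 0.0682) did not pass. Of 28 lysosomal enzymes and membrane proteins 6 rose and 0 fell (median 0.14), among them the phosphatase Acp5 (1.45 ± 0.24), Cln3 (0.63 ± 0.12) and the galactosidase Gla (0.60 ± 0.16).

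Of 16 vacuolar ATPase subunits, which acidify the lysosome, 6 rose and 0 fell (median 0.31), with Atp6v0a1 at 0.62 ± 0.07 and Atp6v1c1 at 0.53 ± 0.07. Of 16 lysosomal proteases and cystatins 8 rose and 0 fell (median 0.53), with Ctsk, a collagen-cleaving cathepsin, at 1.32 ± 0.14 and Ctso at 0.52 ± 0.08. Without anti-PD-L1 replicate 1 these 4 lists had 8, 14, 10 and 12 higher and 0, 0, 0 and 1 lower. Against PBS they had 6, 13, 7 and 7 higher and 0 lower, where 15.6% of all genes were higher and 14.4% lower.

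Lipid genes did not move one way. Of 13 LXR targets and cholesterol efflux genes 1 rose and 2 fell (median -0.19): the apolipoprotein Apoc1 (1.23 ± 0.27) rose, and the phospholipid carrier Pltp (-2.42 ± 0.35) and the desaturase Scd2 (-1.28 ± 0.19) fell. Without anti-PD-L1 replicate 1, 4 rose and 2 fell (median 0.16). Of 17 lipid uptake and droplet genes 4 rose and 3 fell (5 and 3 without that library), with the hormone-sensitive lipase Lipe (0.60 ± 0.11), Pparg (0.78 ± 0.17) and Plin3 (0.37 ± 0.08) higher and the oxidized lipoprotein receptor Olr1 (-1.22 ± 0.14), Cd36 and Lrp1 (-0.52 ± 0.13) lower.

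Of 17 fatty acid genes 1 rose, the transporter Slc27a1 (0.66 ± 0.12), and 4 fell (1 and 5 without that library), among them Scd2, Acsl3 (-0.71 ± 0.15) and Acadm (-0.31 ± 0.07). Of 6 partners and relatives of Lpl 1 rose and 2 fell, with or without that library. The riser was Lipg, the endothelial lipase (3.80 ± 0.38), at 1.16 ± 0.356 FPKM with anti-PD-L1 and 29.8 ± 9.80 with both agents, opposite to Lpl. Endothelial markers summed to 3.48 to 5.54 and 14.4 to 17.2 FPKM in these groups, and their part in the Lipg difference was not tested. Sort1 (-1.08 ± 0.19) and Sel1l (-0.25 ± 0.08) fell.

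The receptors of the secreted members included more lower than higher genes, though without anti-PD-L1 replicate 1 the Apoe receptors had 2 of each and the osteopontin list had 2 higher and 4 lower. Of 7 Apoe receptors 1 rose, Sorl1 (0.97 ± 0.22), and 3 fell, Sort1, Lrp1 and Scarb1 (-0.37 ± 0.13), of which Scarb1 lost its call without anti-PD-L1 replicate 1. Of 11 osteopontin receptors and proteases 2 rose and 5 fell (median -0.36). The integrin chain Itgb5 (0.99 ± 0.19) and Mmp9 (1.20 ± 0.38), which is also a neutrophil marker, rose. The integrin chain Itga4 (-1.10 ± 0.11), Cd44 (-0.92 ± 0.11) and Mmp3 (-2.22 ± 0.32) fell.

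Of 13 tetraspanins and partners 5 rose, among them Cd37 (0.62 ± 0.13), Cd82 (0.69 ± 0.17) and Tspan3 (0.62 ± 0.16), and 1 fell, Igsf8 (-0.58 ± 0.18), whose call was lost without anti-PD-L1 replicate 1 (5 and 2 in the list then). Of 6 relatives and reported partners of Gpnmb 1 rose, the proteoglycan Sdc4 (0.88 ± 0.11), and 2 fell, Cd44 and the integrin chain Itgb1 (-0.53 ± 0.19). Without that library 1 rose and 3 fell. The related melanosome gene Pmel gave -0.13 ± 0.14 (adjusted p = 0.517).

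In tumor cells 7 of the 173 list genes tested, each counted once, were called for both agents against anti-PD-L1, 3.47% higher and 0.578% lower, where 1.16% of all genes were higher and 0.387% lower. Among them the macrophage elastase Mmp12 (0.86 ± 0.12), the cholesterol carrier Npc2 (0.64 ± 0.12), the LXR gene Nr1h3 (0.79 ± 0.15), the tetraspanin Cd53 (0.53 ± 0.07) and Ms4a6d (0.49 ± 0.08) rose. Timp2 fell by 0.38 ± 0.07. Mmp12 was at 5.12 ± 0.929 FPKM with anti-PD-L1 and 10.1 ± 0.559 with both agents.

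**Figure D5:**
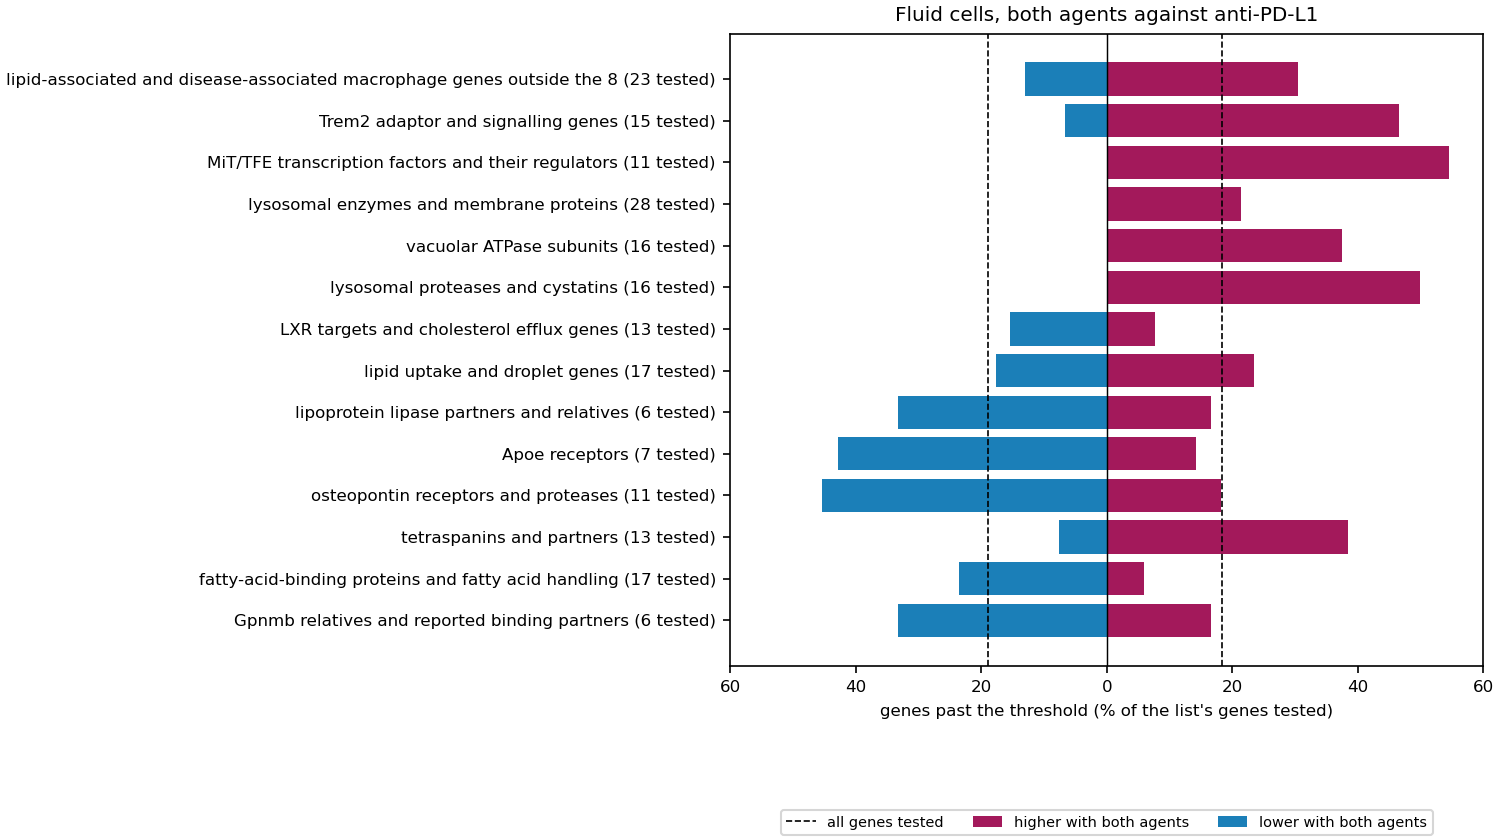
Share of the genes tested in each of 14 lists that passed the limma threshold for both agents against anti-PD-L1 in fluid, higher to the right and lower to the left, in percent; dashed lines are the shares over all 13518 genes tested. The MiT/TFE, lysosomal enzyme, vacuolar ATPase and lysosomal protease lists hold no lower gene, and the lists of osteopontin and Apoe receptors hold more lower than higher genes, equal numbers for Apoe receptors without anti-PD-L1 replicate 1.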

How the data were processed

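The deposited table holds 1 FPKM value per gene and library, with gene lengths. The authors' processing is known only from the submitters' processing notes, which list fastp, STAR, featureCounts and DESeq2, and mm9 as build, giving neither versions nor roles. The table's coordinates, however, are those of GRCm38 in GENCODE M21 for 53474 of 54383 shared IDs, the 8 genes included. Per the labels' protocols, mRNA was selected with poly-T beads, and strand is not stated, so genes that overlap, on either strand, may share reads. Rescaled by gene length and library, 99.97 to 99.99% of the values in each library were whole reads to within 0.01 read, and the depths given are sums of these reads. In 21 genes they were not (9 in fluid, 19 in tumor), and tests in that tissue leave those genes out; none is among the 8.

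Tests used limma 3.58.1 in R 4.3.3 (moderated variances with a trend) on log2(FPKM + 1), a scale that understates the change of low genes. The filter kept genes with 3 or more libraries at an FPKM of 1 or above. Treatments were compared in 1 fit per tissue over 12 libraries, tissues in 1 fit over all 24, and p-values are two-sided and Benjamini-Hochberg adjusted over all genes tested. With 3 libraries against 3, an exact permutation test has a smallest p of 0.1, so calls rest on the spread limma pools over groups and genes. The labels give 3 mice per treatment, and p-values measure the spread between these libraries. No library was a duplicate of another: between replicates the chi-square over its degrees of freedom was 4.90 to 95.7. The fits were tested on simulated data. Python 3.11.15 with pandas 2.3.3 and matplotlib 3.10.9 made the tables and plots.

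The 8 genes and all lists were chosen with earlier results of these data known. Of each list the text names up to 3 genes per direction with the smallest p among those called for both agents against anti-PD-L1 in fluid, and up to 2 in tumor. It also names the 6 nearest profiles of Gpnmb and the 3 nearest of each other gene, among genes with a group mean of at least 10 FPKM and leaving out symbols of mitochondrial, ribosomal and predicted genes and of immunoglobulin or T cell receptor segments. Tyrobp, Plin2, Cd63, Itgax, Pmel, Mitf, Tfeb, Tfe3 and Nfatc1 fall outside that rule and were named after their values were seen. Leaving fluid anti-PD-L1 replicate 1 out of the list counts was also decided after seeing the data. Alternatives were a pseudocount of 0.1, no filter, TPM, leaving out each library, fitting only the groups compared, and a block for replicate number; voom on recovered reads and scaling to total reads were added after seeing the data. No protein sequence is shown here, and 1 list gene that the rule names in tumor is not reported here.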

Additional observations from a re-analysis of the deposited data

Results flagged for a closer look

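The difference of both agents minus anti-PD-L1 was not the same in the 2 tissues for 4 of the 8 genes, by a test of the difference itself (limma over 24 libraries, both contrasts in 1 fit, 15222 genes, of which 22.2% were called). Tumor minus fluid, it was -3.11 ± 0.23 for Gpnmb, -2.35 ± 0.25 for Fabp5, -2.01 ± 0.47 for Spp1 and 2.14 ± 0.56 for Lpl on the log2 scale. For Gpnmb the difference lay in higher fluid levels with both agents, and for Lpl in higher fluid levels with anti-PD-L1 alone. Against PBS in fluid, Fabp5 was higher with both agents (1.65) and lower with anti-PD-L1 (-0.80). Spp1 gave 1.26 and -0.59 in these comparisons, and neither value passed the test. Leaving out each library in turn kept Gpnmb between -3.26 and -3.00, Fabp5 between -2.60 and -2.19, Spp1 between -2.40 and -1.36 and Lpl between 1.65 and 2.62. The 3 fluid anti-PD-L1 libraries also differ from the other fluid libraries in the Y-linked gene Ddx3y (21.6 to 23.6 FPKM against at most 0.0283), and in tumor it was at 3.27 to 3.44 FPKM with anti-PD-L1 and 3.55 in PBS replicate 1, against at most 0.0205 in the other tumor libraries. The part of sex in these differences cannot be told apart from that of the treatment in either tissue.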

How the results depend on the processing

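Of the values for single genes under the alternatives, 740 kept their direction and side of the threshold, 25 lost a call, 14 gained one and 23 changed sign; the cause was not tested except where fewer samples or genes are the alternative itself. Precision is limited by 3 libraries per group. The planned count tests of edgeR and DESeq2 were not run, because the deposited unit is FPKM.

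Anti-PD-L1 against PBS in fluid called 1 of the 8 genes with no filter and 0 when only the groups compared were fitted, and over all genes 1045 under TPM and 1043 with only those groups (1751 as reported, 739 higher and 1012 lower; 148 and 897 under TPM, 537 and 1267 under total-read scaling). Both agents against PBS in fluid called Apoe, Spp1 and Ctsd in addition with only the groups compared (and over all genes 1140 higher and 1715 lower under TPM, where 2111 and 1953 are reported). Both agents against LNP-CDN in fluid called 1 gene at a pseudocount of 0.1, 2 with no filter, 2 under TPM and 4 with only those groups. In tumor, anti-PD-L1 against PBS called 1 with no filter and 2 with only those groups, and both agents against LNP-CDN called 1 with no filter. Both agents against PBS in tumor called 156 genes, but 52 with no filter, 18 under TPM and 264 by voom. Both agents against anti-PD-L1 in tumor called 204, but 78 with no filter, 46 under TPM, 8 with only those groups and 319 by voom. The tissue difference called 3372 genes and 1799 under TPM.

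No pairing by replicate number was assumed. Deviations of same-numbered libraries correlated at -0.04 to 0.23 between fluid and tumor, -0.23 to 0.20 within fluid and -0.20 to 0.11 within tumor. Libraries of different numbers were not correlated for reference, so these values cannot exclude that a fluid and a tumor library share a mouse. With the replicate block, both agents called 93 genes against PBS and 104 against anti-PD-L1 in tumor, and none of the 8 genes' counts moved by over 1.5 times.

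Leaving out each library in turn, anti-PD-L1 against PBS called 0 to 3 of the 8 and 724 to 1789 of all genes in fluid and 0 to 2 in tumor. Both agents called 25 to 116 against PBS and 12 to 320 against anti-PD-L1 in tumor, and the tissue difference held 4 to 7 of the 8. Some signs turned under these: for anti-PD-L1 against PBS in fluid, Cd9 ran from -0.49 to 0.19, Trem2 from -0.27 to 0.33, Apoe from -0.63 to 0.87 and Spp1 from -0.97 to 0.0731. Ctsd ran from -0.20 to 0.22 for both agents against anti-PD-L1 in fluid. For tumor minus fluid, Cd9 ran from -0.24 to 0.15 with PBS, and with anti-PD-L1 Spp1 ran from -0.16 to 0.88, Cd9 from -0.26 to 0.42 and Fabp5 from -0.10 to 0.31. In the tissue difference of the nanoparticle, Ctsd ran from -0.10 to 0.32 and Apoe from -1.22 to 0.28. Under TPM, Gpnmb turned to 0.15 for both agents against anti-PD-L1 in tumor, and Apoe to 0.01 (0.0092) in the tissue difference. Tumor minus fluid with PBS turned to 0.21 for Spp1 and 0.43 for Cd9 under TPM, and to 0.10 and 0.31 under total-read scaling. TPM moved the median of all genes by up to 0.47 between the tissues and 0.24 in tumor; the gene Gm23935 takes 3.59 to 42.5% of the summed FPKM.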

Other observations

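Gpnmb is also known from osteoclasts and melanocytes, and markers of both were read. Of 7 osteoclast markers 3 could be tested for both agents against anti-PD-L1 in fluid, and all 3 rose: Ctsk (1.32 ± 0.14), Acp5 (1.45 ± 0.24) and the transcription factor Nfatc1 (0.46 ± 0.08), with limma adjusted p of 0.000108, 0.00131 and 0.0019. The list summed to 14.7 to 22.2 FPKM with anti-PD-L1 and 35.7 to 38.7 with both agents. Its more defining members were near 0 there: with both agents Dcstamp was at 0.00777 ± 0.0135 FPKM, Oscar at 0.0104 ± 0.0180 and Calcr at 0.00491 ± 0.00850. The difference of Ctsk between the tissues was -1.68 ± 0.25, tumor minus fluid (adjusted p = 0.000143), and in tumor none of the 3 passed.

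Melanocyte markers summed to at most 1.34 FPKM in any fluid library and at most 0.305 in any tumor library, and Tyr was listed at 0 in every group. Proliferation markers fell in fluid with both agents against anti-PD-L1, 5 of 5, from 108 to 160 FPKM summed down to 43.0 to 50.7. Fibroblast markers fell too, 5 of 6, from 76.4 to 131 FPKM down to 45.8 to 57.5. Over all genes 18.4% were higher and 18.9% lower in that comparison. Counts of these markers and of the osteoclast markers without fluid anti-PD-L1 replicate 1 are not given. Their part in the differences of the 8 genes was not tested.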
